A study of Mus musculus with 25 samples.

Results

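The glycophorin, Rh and blood-group genes examined here are Gypc, Rhag, Rhd, Kel, Xk, Ermap, Icam4 and Aqp1, 8 of 22208 protein-coding gene names in the GENCODE annotation of mouse build mm9. They were taken as a list of names, and the binding locations that lay in their gene bodies or within 20 kb on either side were collected for the factors GATA1 and TAL1. This gave 323 of the 166131 entries in the 6 lists of locations. Of the members, only Gypc encodes a glycophorin.

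GATA1 and TAL1 were mapped by ChIP-exo, in which lambda exonuclease trims immunoprecipitated DNA up to the cross-linked protein so that sequenced ends mark the edge of the contact. The cells were G1E, a strain 129 mouse erythroid progenitor line that lacks Gata1 and does not mature, and G1E-ER4, a line made from it in which GATA1 is restored as a fusion that acts once estradiol is added. The GATA1 samples (antibody sc265) were 9 from G1E-ER4 cells, 3 each at 0, 3 and 24 h of estradiol, and 1 from G1E cells. The TAL1 samples (antibody sc12984) were 11 from G1E-ER4 cells, with 5 before estradiol and 3 each at 3 and 24 h of it, and 4 from G1E cells. All cells therefore share the deletion of the endogenous Gata1 gene, and all G1E-ER4 samples come from a single line that carries the fusion.

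For each factor there was a list of peak pairs, which are matched peaks of tag ends on opposite strands, a list of locations called by the program MultiGPS, and a final list of MultiGPS locations with a peak pair close by. The word location below means an entry of the final list unless another list is named. Each entry was a single base position, and the lists pooled libraries and times and held no score, tag count or replicate. The depth behind an entry is therefore unknown, the times cannot be compared, and no test over samples can be made. Entries of GATA1 and TAL1 that lie close together may also come from different cells or times. A site given below as having both factors describes listed positions and not joint binding in the same cells. Counts at the 8 genes are set beside the same counts over all protein-coding genes or all locations, as a description. The lists also hold no expression values, so whether these cells transcribe the 8 genes was not examined.

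Blood-group antigens are inherited variants of proteins and sugars on the red cell surface, and most of their names and serology come from human. Many of the carrier proteins sit in large complexes that tie the lipid bilayer to the spectrin skeleton or move water, ions and gases across it, and many of their genes are switched on as erythroid progenitors mature. GATA1 is a zinc finger protein that recognizes WGATAA, that is, AGATAA or TGATAA on either strand, and TAL1 is a basic helix-loop-helix protein that binds the E-box CANNTG with an E protein partner and is often found in complexes with GATA1.

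The sequences below were read from the mm9 genome and show the WGATAA elements at the start sites of 5 members, 5′ to 3′, with WGATAA in capitals and, where TG stood 7 or 8 bp upstream of it, that TG in capitals as well. TG at this spacing was marked because it belongs to a composite element known from complexes that contain both factors. Stretches that overlap an untranslated region are cut to 30 bases around the motif.
Rhd, GATA1 location 37 bp upstream of the start, chr4:134420374-134420450, plus strand: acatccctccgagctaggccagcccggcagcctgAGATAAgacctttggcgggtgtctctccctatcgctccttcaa
Ermap, GATA1 location 37 bp upstream of the start, chr4:118862617-118862693, plus strand: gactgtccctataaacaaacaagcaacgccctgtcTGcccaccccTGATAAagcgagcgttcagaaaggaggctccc
Kel, WGATAA beside the GATA1 location at the start, chr6:41654319-41654348, minus strand: ctcacTGATAAgcaggctccacccagaggc
Kel, TAL1 location 67 bp upstream of the start, chr6:41654365-41654445, minus strand: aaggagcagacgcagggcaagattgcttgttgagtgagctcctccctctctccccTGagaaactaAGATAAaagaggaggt
Icam4, WGATAA closest to the GATA1 location at the start, chr9:20833827-20833856, minus strand: gtttaggcTGgccgcaggAGATAAgaaggc
Rhag, WGATAA closest to the TAL1 location at the start, chr17:40948061-40948090, minus strand: ccacaggcTGtatagtgtTGATAAgagcag

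GATA1 lay at the transcription start of 4 of the 8 genes, Rhd, Kel, Ermap and Icam4, each with a location within 100 bp of an annotated start site, against 0.811% of all genes. TAL1 lay as close to the start of 6 genes, the same 4 with Rhag and Gypc, against 0.621% of all genes. Both factors were found within 100 bp of a start in 4 of 8 members and in 59 of 22208 genes, or 0.266%. Within 1 kb of a start the counts of members were again 4 for GATA1 and 6 for TAL1, against 4.57% and 2.81% of all genes, and both were present in 4 members, against 1.68%. Xk and Aqp1 had neither factor at a start at either distance.

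Rhd, the mouse gene for the Rh polypeptide that carries Rh antigens in human, had a GATA1 location 37 bp upstream and a TAL1 location 32 bp downstream of the 5′ end of the gene body. Its WGATAA, printed above, was centered 40.5 bp upstream on the same strand as the gene, 3.5 bp from the GATA1 location. No TG stood 7 or 8 bp upstream of it. A TAL1 peak pair lay 5 bp upstream of the start and so 32 bp from the GATA1 location.

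Kel, which encodes the Kell glycoprotein, a zinc endopeptidase that processes endothelin in human, had a GATA1 location 4 bp into the gene. Around it were 3 TAL1 locations, 188 and 67 bp upstream and 86 bp downstream of the start, and 8 TAL1 peak pairs within 250 bp. This was the densest of the member starts in peak pairs. A pair of WGATAA elements, centered 2.5 and 39.5 bp upstream and both on the strand of the gene, lay between the outer TAL1 locations. The distal element had TG 8 bp upstream of it and the proximal element did not.

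Ermap encodes an erythroblast membrane protein of the immunoglobulin superfamily that carries the Scianna antigens in human. Its start had a GATA1 location 37 bp upstream and TAL1 locations 94 bp upstream and 53 bp downstream. The TGATAA element, centered 48.5 bp upstream on the strand opposite to the gene, had TG 8 bp upstream of it. The GATA1 location thus lay between the TAL1 locations, 57 bp from the nearer.

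Icam4, a small immunoglobulin superfamily gene whose human product carries the LW antigens and binds integrins, had a GATA1 location 18 bp upstream and a TAL1 location 78 bp downstream of its start. The closest WGATAA was centered 18.5 bp downstream on the opposite strand, 36.5 bp from the GATA1 location, with TG 8 bp upstream. There were 6 TAL1 peak pairs within 250 bp of the start, of which 1 lay 2 bp from the GATA1 location.

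Rhag and Gypc had TAL1 alone at the start. Rhag, the Rh-associated glycoprotein that the Rh complex needs to reach the membrane, had a TAL1 location 15 bp into the gene, in the 5′ untranslated region, and no GATA1 entry of any list within 250 bp. Its TGATAA, centered 5.5 bp upstream on the opposite strand, had TG 8 bp upstream of it. Gypc, glycophorin C, which anchors the membrane to protein 4.1 of the skeleton, had a TAL1 location 91 bp upstream and a GATA1 peak pair 59 bp downstream that did not reach the final list. No WGATAA lay within 100 bp of the 5′ end of its gene body.

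**Figure D1:**
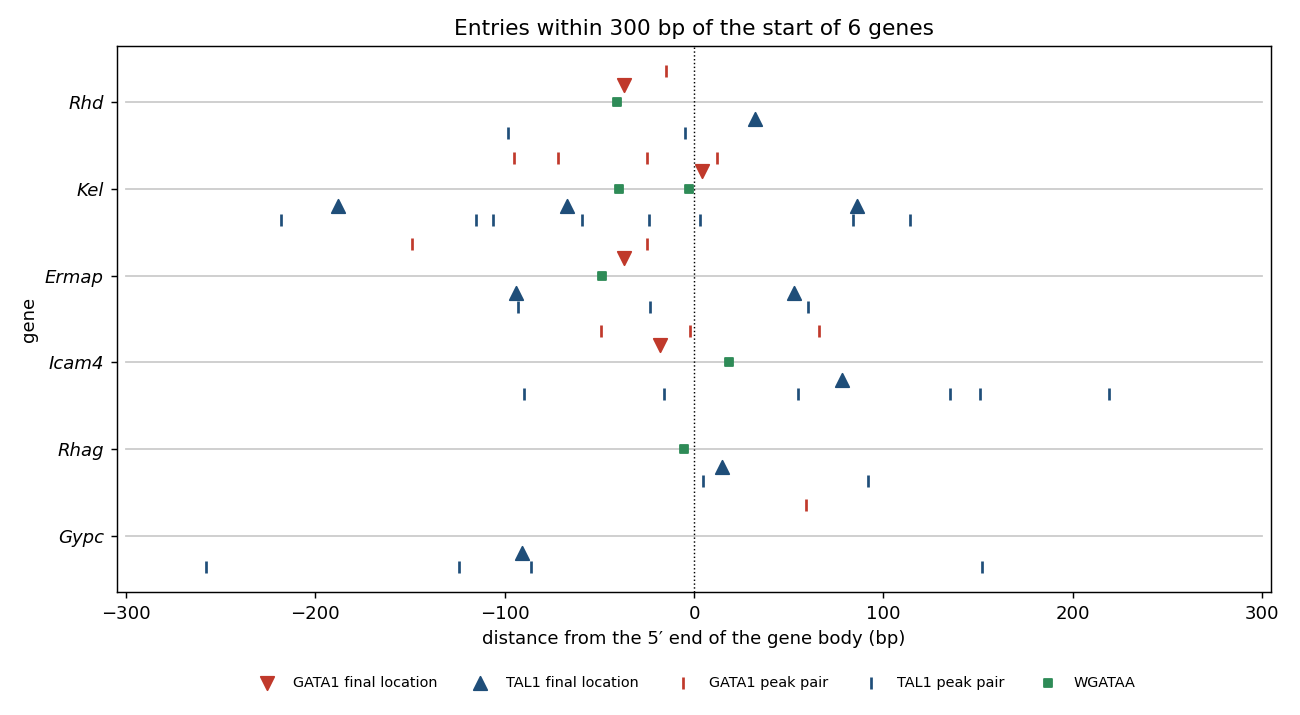
Entries around the 5′ end of 6 genes, with distance in bp on the x axis and negative values upstream. Red triangles are GATA1 locations, blue triangles TAL1 locations, ticks the peak pairs of each factor and green squares WGATAA elements. Rhd, Kel, Ermap and Icam4 have both factors near the start, while Rhag and Gypc have TAL1 locations alone.

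WGATAA was found within 100 bp of the 5′ end of the gene body in 5 of the 8 genes, against 9.02% of all genes. Of the 6 elements at these 5 starts, 4 had TG 7 or 8 bp upstream, and the spacing was 8 bp at all 4, in Rhag, Kel, Ermap and Icam4. Over all genes 344 of 2263 such elements had it, or 15.2%. All 5 of these member starts had a TAL1 location, however. Of all TAL1 locations with WGATAA within 40 bp, 50.8% had TG 7 or 8 bp upstream of the closest one. The share at 8 bp alone was not counted over all genes or locations. TAL1 locations away from the starts, at Gypc, Rhag, Ermap and Xk, also had TG at 8 bp. The 6 elements at the member starts did not share an orientation. Of these, 3 were on the strand of the gene (Rhd and the pair at Kel) and 3 on the opposite strand (Rhag, Ermap and Icam4). In RefSeq promoters of 300 bases on build GRCm38.p6, which matched 7 of the 8 members (all but Gypc), WGATAA was present in 5 of 7, against 17.6% of 14849 promoters. The promoters of Xk and Aqp1 lacked it. CCNCNCCC, a sequence of the type bound by KLF1, was present in 4 of 7 member promoters and in 60.6% of all, and CANNTG in 4 of 7 and 71.9%. All 3 motifs were searched on both strands.

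At the 4 starts with both factors, no TAL1 location was close enough to GATA1 to count as cooccupied, which the study set at under 40 bp between midpoints. The nearest TAL1 location was 69 bp from GATA1 at Rhd, 71 bp at Kel, 57 bp at Ermap and 96 bp at Icam4, with a median of 70 bp. At the 59 genes with both factors at a start the median was 24 bp, 43 of them (72.9%) were under 40 bp and 15 (25.4%) were at 40 to 99 bp. Peak pairs gave another picture of the same 4 starts, since the nearest TAL1 peak pair was 32 bp from the GATA1 location at Rhd, 1 bp at Kel, 14 bp at Ermap and 2 bp at Icam4. By peak pairs all 4 starts were under 40 bp, as were 53 of the 59.

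Over their whole windows, 6 of the 8 genes had a GATA1 location, against 30.1% of all genes, and 7 had a TAL1 location, against 27.5%. The 18 GATA1 locations gave a median of 2.5 per member, against 0 over all genes, and 0.36 per 10 kb, against 0.0734. The 44 TAL1 locations gave a median of 3.5, against 0, and 0.881 per 10 kb, against 0.105. Gypc alone held 19 of the 44, and 25 remained without it. At least 1 location of each factor was present in 6 members and in 21.5% of all genes. MultiGPS locations were found at 6 members for GATA1 and 7 for TAL1, against 34.3% and 31.5% of all genes. In the longest lists, a GATA1 peak pair was found at 7 members and 57.4% of genes, and a TAL1 peak pair at all 8 and 61.2%, so that presence of a peak pair set the members apart less than presence of a location did.

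**Figure D2:**
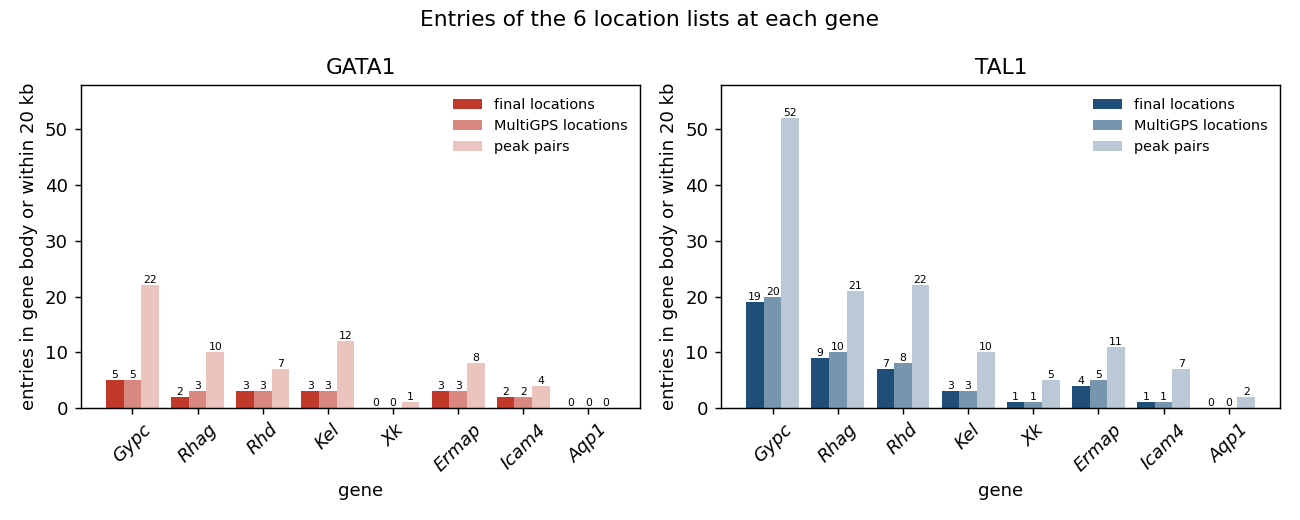
Number of entries of each list (y axis) in the gene body or within 20 kb of each of the 8 genes (x axis), for GATA1 on the left and TAL1 on the right. Bars from dark to pale are final locations, MultiGPS locations and peak pairs. Gypc has the most TAL1 entries in all 3 lists, with 19, 20 and 52, and Aqp1 has only 2 TAL1 peak pairs.

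Gypc (ENSMUSG00000090523.2, chromosome 18, 32687976 to 32719688, minus strand) had 5 GATA1 and 19 TAL1 locations. As many or more GATA1 locations were found at 2.29% of all genes and as many or more TAL1 locations at 0.162%. All 5 GATA1 locations were in introns, and 4 of them were cooccupied, with TAL1 3, 37, 15 and 1 bp away. The fifth, 10.5 kb into the gene, was 2465 bp from the nearest TAL1 location. The cooccupied locations lay in 3 intronic groups, 7.88, 17.4 to 17.5 and 21.5 kb from the 5′ end, and none was at a start. Gypc had a further annotated start inside its body, and the GATA1 locations at 17.4, 17.5 and 21.5 kb lay 7220, 7080 and 3135 bp upstream of it.

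In each of these groups TAL1 formed a homotypic cluster, meaning locations of 1 factor under 500 bp apart. The largest had 11 TAL1 locations over 753 bp, between 32701847 and 32702600, and 26 of the 2906 TAL1 clusters in the genome were of this size or larger. Neighbors in it were separated by a median of 75.5 bp. It held 5 WGATAA elements and 12 matches to CANNTG, with 21 TAL1 and 8 GATA1 peak pairs. CANNTG reads the same on the opposite strand, so each of its places was counted on both strands, unlike those of WGATAA. The other clusters had 4 TAL1 locations over 244 bp and 2 over 109 bp. The only GATA1 cluster at any member, 2 locations 140 bp apart at 32702152 and 32702292, lay inside the TAL1 cluster of 11.

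Rhag (ENSMUSG00000023926.7, chromosome 17, 40948075 to 40977703, plus strand) had 2 GATA1 and 9 TAL1 locations, and 14.7% of all genes had as many GATA1 locations or more and 1.91% as many TAL1 locations or more. Both GATA1 locations were upstream, 4.23 and 3.72 kb from the start and outside protein-coding genes. Beside them lay 6 TAL1 locations over 405 bp, between 40943611 and 40944016, and 337 of 2906 clusters were as large. The nearest TAL1 location was 59 bp from the GATA1 location at 40943845 and 338 bp from that at 40944354, so neither was cooccupied.

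The upstream region of Rhag and a site in its intron are shown because TAL1 lay at WGATAA with TG at both. Neither TAL1 location had a GATA1 location under 40 bp away, but a GATA1 peak pair lay 5 bp from the upstream one. The intronic TAL1 location, 6.71 kb into the gene, was 20 bp from a GATA1 location that MultiGPS called but that had no peak pair within 100 bp and so was not in the final list.
Rhag, TAL1 location 4.31 kb upstream, chr17:40943724-40943804, minus strand: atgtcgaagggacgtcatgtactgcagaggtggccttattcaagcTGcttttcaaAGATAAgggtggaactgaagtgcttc
Rhag, TAL1 location 6.71 kb into the gene, chr17:40954744-40954824, minus strand: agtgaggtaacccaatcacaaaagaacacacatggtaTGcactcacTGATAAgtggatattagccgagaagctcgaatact

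Rhd (ENSMUSG00000028825.7, chromosome 4, 134420451 to 134452087, plus strand) had 3 GATA1 and 7 TAL1 locations, which 7.41% and 3.47% of all genes reached or passed. Besides the start, GATA1 lay 1.39 kb upstream, 1419 bp from any TAL1 location, and 5.02 kb into the gene in an intron. The intronic location was cooccupied, 15 bp from TAL1, within a cluster of 6 TAL1 locations over 386 bp with 16 TAL1 peak pairs and 3 WGATAA elements. Its sequence is shown as the cooccupied site of the Rh genes, and its closest TGATAA, in capitals, lacked TG at 7 or 8 bp. The stretch holds 2 WGATAA elements, of which the TGATAA farther from the location is left in lower case.
Rhd, cooccupied GATA1 location 5.02 kb into the gene, chr4:134425431-134425511, minus strand: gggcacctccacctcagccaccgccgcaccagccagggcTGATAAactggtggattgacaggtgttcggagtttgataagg

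Icam4 (ENSMUSG00000001014.5, chromosome 9, 20833817 to 20834975, plus strand) had 2 GATA1 locations and 1 TAL1 location, which 14.7% and 27.5% of all genes reached or passed. Apart from the start, GATA1 lay 1.71 kb downstream of the 5′ end, past the end of this 1.16 kb gene, where the closest annotated start was that of Icam5, 952 bp away. That location had no WGATAA within 40 bp and was 1635 bp from TAL1. All 4 GATA1 peak pairs of Icam4 were within 100 bp of a MultiGPS location.

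Kel (ENSMUSG00000029866.8, chromosome 6, 41636329 to 41654338, minus strand) had 3 locations of each factor, which 7.41% of all genes reached or passed for GATA1 and 11.5% for TAL1. All 3 TAL1 locations were at the start and formed a cluster of 274 bp, while GATA1 was also found 2.81 kb into the gene in an intron and 2.12 kb upstream. Those outlying GATA1 locations were 2726 and 1932 bp from TAL1. GATA1 peak pairs with WGATAA and no MultiGPS location within 100 bp lay 19.2, 19.3 and 27.7 kb from the 5′ end, past the end of the gene. Another such pair lay 2.54 kb into the gene.

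Xk encodes the multispanning membrane protein that carries the Kx antigen and, in human, is joined to Kell by a disulfide bond. The gene (ENSMUSG00000015342.6, chromosome X, 8849882 to 8890376, plus strand) had no GATA1 location and 1 TAL1 location, 26 kb into the gene in an intron. As many or more TAL1 locations were found at 27.5% of all genes, so Xk did not stand apart by count. A GATA1 peak pair lay 53 bp from this TAL1 location without a MultiGPS call. The sequence is shown because it holds TGATAA with TG 8 bp upstream. The starts of Rhag, Kel, Ermap and Icam4 also had TG at 8 bp. TG at 7 or 8 bp was common, however, at 50.8% of all TAL1 locations with WGATAA within 40 bp. The share at 8 bp alone was not counted, so this spacing does not by itself tie Xk to Kel.
Xk, TAL1 location 26 kb into the gene, chrX:8875842-8875922, plus strand: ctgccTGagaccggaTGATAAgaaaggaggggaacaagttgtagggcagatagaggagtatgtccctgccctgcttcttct

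Ermap (ENSMUSG00000028644.9, chromosome 4, 118848062 to 118862616, minus strand) had 3 GATA1 and 4 TAL1 locations, which 7.41% and 8.38% of all genes reached or passed. Its cooccupied location was 731 bp upstream of the start, with TAL1 7 bp from GATA1, at AGATAA with TG 7 bp upstream. It is shown as the cooccupied location closest to the start of any member. A GATA1 location 5004 bp upstream lay 291 bp from the start of the neighboring gene Ccdc23, and a TAL1 location 23.8 kb from the 5′ end, past the end of the gene, was closest to the start of Zfp691.
Ermap, cooccupied GATA1 location 731 bp upstream, chr4:118863307-118863387, minus strand: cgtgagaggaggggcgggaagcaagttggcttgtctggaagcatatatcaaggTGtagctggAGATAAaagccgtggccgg

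Aqp1, the water channel that carries the Colton antigens in human, had no location of either factor and no MultiGPS call (ENSMUSG00000004655.5, chromosome 6, 55286426 to 55298549, plus strand). It had 2 TAL1 peak pairs, 9.91 kb upstream and 9.21 kb downstream of the 5′ end, neither with WGATAA within 40 bp. A list without an entry shows that no call passed the thresholds of the callers (q below 0.05 and a more than 2-fold excess above input), and not that the factor was absent.

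**Figure D3:**
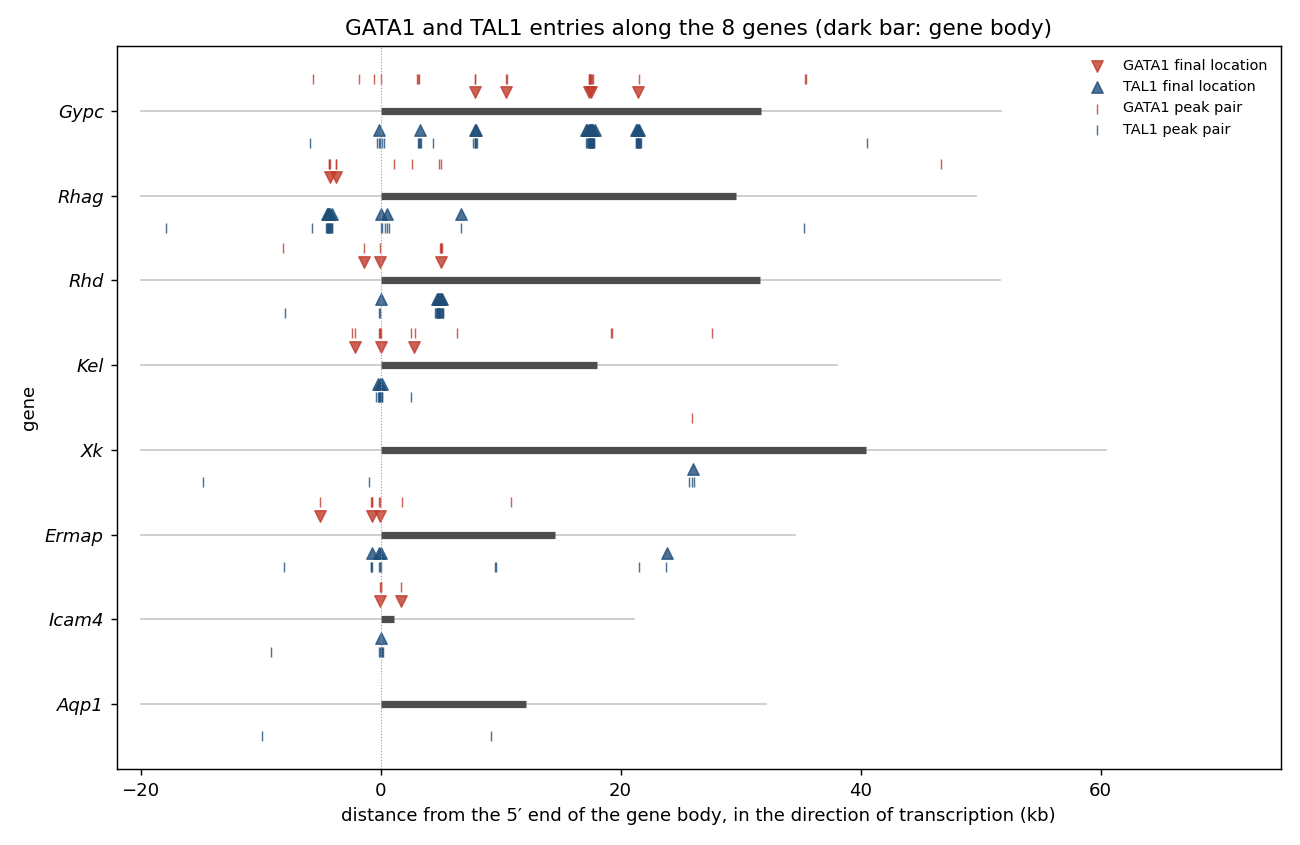
Position of the entries along the 8 genes, in kb from the 5′ end of the gene body in the direction of transcription (x axis), 1 row per gene, with the gene body as a dark bar and the 20 kb flanks as grey lines. Triangles are locations and ticks are peak pairs, red for GATA1 above each gene and blue for TAL1 below it. The 4 genes with both factors at 0 are Rhd, Kel, Ermap and Icam4, and the TAL1 clusters of Gypc lie 7.88 to 21.6 kb into the gene.

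By annotation, 7 of the 18 GATA1 locations were in introns, 1 was in an untranslated region and 10 were outside protein-coding genes. Of the 44 TAL1 locations, 27 were intronic, 5 were in untranslated regions and 12 were outside. The closest protein-coding start was that of the member for 16 of 18 GATA1 and 42 of 44 TAL1 locations. Of the others, the start closest to the Xk location was that of 1700012L04Rik. Locations at the members were more often near a start than locations in general, with 38.9% of GATA1 locations (7 of 18, exact binomial interval 17.3 to 64.3%) within 1 kb of a protein-coding start, against 10.4% of all, and 25% of TAL1 locations (11 of 44, 13.2 to 40.3%), against 7.46%. These intervals are at 95%, cover counting error only and treat neighboring locations as independent, although locations in a cluster share sequence.

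GATA1 locations at the members were cooccupied in 6 of 18 cases, or 33.3% (13.3 to 59%), against 35.9% of all GATA1 locations, a share that this number of locations cannot tell apart. The 6 were in 3 genes, with 4 in Gypc and 1 each in Rhd and Ermap, and 14.7% of all genes had a cooccupied location. At 40 to 99 bp the share was 27.8% (5 of 18, 9.69 to 53.5%), against 12%. Seen from TAL1, 13.6% of the 44 locations were cooccupied (5.17 to 27.4%), against 27.5%, and 38.6% had GATA1 at 40 to 99 bp and none closer (17 of 44, 24.4 to 54.5%), against 20.5%. By midpoints, TAL1 locations at the members had a lower share under 40 bp and a higher share at 40 to 99 bp than all TAL1 locations. In Gypc and the Rhd intron, however, TAL1 locations at 40 to 99 bp were cluster neighbors of another TAL1 location that was cooccupied with the same GATA1 location. The shares seen from TAL1 thus count such neighbors and do not by themselves describe spacing. Most of the cooccupied locations were in Gypc, and without it 15.4% of the GATA1 and 8% of the TAL1 locations were cooccupied. By peak pairs, 61.1% of GATA1 locations (35.7 to 82.7%) had TAL1 under 40 bp away, against 48.1% of all, whereas 36.4% of TAL1 locations (16 of 44, 22.4 to 52.2%) had GATA1 under 40 bp away, against 49.6% of all.

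**Figure D4:**
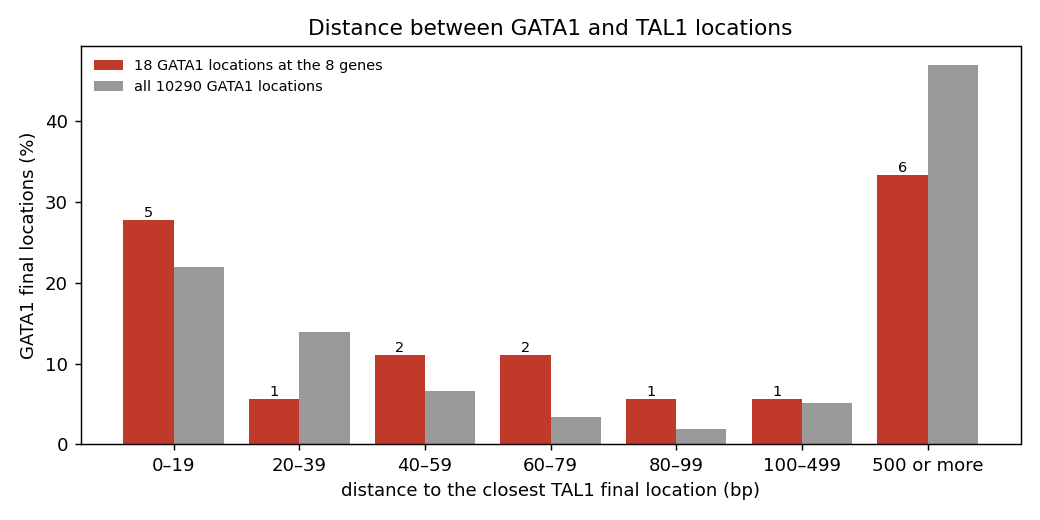
Share of GATA1 locations (y axis, percent) by distance in bp to the closest TAL1 location (x axis), for the 18 locations at the 8 genes in red, with their number above each bar, and for all 10290 in grey. Between 40 and 99 bp there are 5 of the 18, and 6 of the 18 are 500 bp or more from TAL1.

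WGATAA lay wholly within 40 bp of 11 of the 18 GATA1 locations, or 61.1% (35.7 to 82.7%), against 66.5% of all GATA1 locations. In windows moved 1 kb to either side the shares were 5.56% at the members and 8.33% over all. For TAL1 it was 19 of 44, or 43.2% (28.3 to 59%), against 45.9%, with 7.95% and 8.24% in moved windows. Member locations were thus close to locations in general in their share with the motif. TG 7 or 8 bp upstream of the closest WGATAA was found at 3 of 11 GATA1 locations, or 27.3% (6.02 to 61%), against 28.2%, and at 9 of 19 TAL1 locations, or 47.4% (24.4 to 71.1%), against 50.8%. CANNTG lay within 40 bp of 50% of the GATA1 and 36.4% of the TAL1 locations, against 38.2% and 45.3% of all. In moved windows CANNTG was found at 22.2% and 30.7% at the members and at 34% and 35% over all, so the share at the TAL1 locations of the members was little above that of their moved windows. CCNCNCCC lay within 40 bp of 2 GATA1 locations (11.1%, against 8.32% of all) and 2 TAL1 locations (4.55%, against 7.78%).

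TAL1 locations at the members were in homotypic clusters in 34 of 44 cases, or 77.3% (62.2 to 88.5%), against 64.4% of all TAL1 locations. Without Gypc the share was 17 of 25, or 68%. They formed 7 clusters in 5 genes, with 3 in Gypc and 1 each in Rhag, Rhd, Kel and Ermap. For GATA1 2 of 18 were in a cluster, or 11.1%, against 13.7%, both of them in Gypc and none in the other genes.

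Peak pairs that stood more than 100 bp from a MultiGPS location were less frequent at the members than in general, at 26 of 64 GATA1 pairs (40.6%), against 54.5%, and 34 of 130 TAL1 pairs (26.2%), against 50.6%. Member windows also held more MultiGPS locations per 10 kb than those of all genes, 0.381 against 0.0899 for GATA1 and 0.961 against 0.121 for TAL1. The part played by this density was not tested. WGATAA lay within 40 bp of 60.9% of the GATA1 pairs (39 of 64, 47.9 to 72.9%), against 48.2% of all pairs, and of 36.2% of the TAL1 pairs (47 of 130, 27.9 to 45%), against 27.4%. MultiGPS made 5 calls at the members that had no peak pair within 100 bp, which were the GATA1 call in Rhag and TAL1 calls at Gypc, Rhag, Rhd and Ermap.

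For comparison, 25 other genes of blood groups and the red cell surface were counted in the same way. Of these 15 had a GATA1 location and 16 a TAL1 location, with medians of 1 and 2. Among those with the most, Kcnn4, which encodes the calcium-gated potassium channel of red cells, had 6 GATA1 and 16 TAL1 locations, and the transporter gene Abcg2 had 4 and 14. GATA1 lay within 100 bp of a start in 4 of the 8 members and in 3 of these 25 genes, and TAL1 in 6 of the 8 and in 4 of the 25. A cooccupied location was present at 3 of the 8 members and at 15 of the 25. The genes whose 6 counts were most like those of Gypc, by the summed difference of log2(count + 1), were Mylk3 (0.42), Add2 (0.48) and Prkg1 (0.61).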

How the data were processed

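The authors deposited 6 lists of positions for 25 ChIP-exo samples, and the deposited values are single bases on mm9 with no other measurement. Per the labels and the study's methods, bases were called by CASAVA 1.7 or bcl2fastq 2.15, the aligners were Bowtie 1.00, BWA 0.6.2 and BWA 0.7.9a, and uniquely mapped reads of merged replicates were used. Peak pairs and MultiGPS locations had to exceed the input control 2-fold with q below 0.05, blacklisted regions were left out, and the final list holds MultiGPS locations with a peak pair within 100 bp. Any entry thus depends on the union of libraries, and whether the GATA1 library of G1E cells entered the GATA1 lists is not known.

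Gene bodies were those of GENCODE vM1 on NCBIM37 (mm9), with the longest entry of each of 22208 names on chromosomes 1 to 19 and X. An entry belonged to a gene if it lay in the body or within 20 kb. Locations under 40 bp apart were cooccupied and those under 500 bp apart clustered. Motifs were counted as exact strings within 40 bp, and windows moved by 1 kb gave a background. Shares have exact binomial intervals at 95%. The genes named are all 8 members, the genes nearest to their locations, the 3 other surface genes with the most locations, of which 1 is not reported here, and the 3 genes with counts most like those of Gypc. Of 27 other surface gene names, 25 were in the annotation. The members, lists and definitions were chosen with earlier results of these data known, and the start-site counts were added after seeing the data. Promoter sequences are from RefSeq. Alternatives for the window, the list, the distances and the motif are given in the closing section. The counting was tested on simulated data. Computations used Python 3.11.15, numpy 2.4.6, scipy 1.17.1, pysam 0.24.0 and matplotlib 3.10.9.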

Additional observations from a re-analysis of the deposited data

How the results depend on the processing

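The positions carry no count, time or replicate, so neither depth nor the spread between cultures could be examined, and a gene without an entry is one without a call. No paired analysis was possible because the lists pool the libraries and carry no replicate number. Counts of member locations stayed within 1.5 times of 18 for GATA1 and 44 for TAL1 at 10 kb (18 and 44), at 50 kb (25 and 52), by closest start (16 and 42) and with all MultiGPS locations (19 and 48). In gene bodies alone GATA1 had 8 locations, in 3 of the 8 genes, and TAL1 had 32, in 7. At 50 kb both factors had locations at 7 genes. Merged peak pairs gave 51 and 79. Without Gypc, an alternative added after seeing the data, TAL1 had 25 locations and the share of GATA1 locations in clusters was 0%, against 11.1% with it. The share of GATA1 locations with TAL1, 33.3%, was 61.1% under 100 bp, against 47.9% of all, and also 61.1% with a TAL1 peak pair under 40 bp, against 48.1%. The share of TAL1 locations with GATA1, 13.6%, was 52.3% under 100 bp, against 47.9% of all, and 36.4% with a GATA1 peak pair under 40 bp, against 49.6%. WGATAA by a weight matrix was found at 88.9% of the GATA1 locations, against 81.5% of all, and the exact string within 20 bp at 25% of the TAL1 locations, against 22.1% of all. The share of all genes with a GATA1 location was 23.9% at 10 kb, 42.7% at 50 kb and 14.4% in bodies alone, and with a TAL1 location 21.3%, 40.3% and 12.9%. The 4 and 6 members with GATA1 and TAL1 at a start were the same in number at 250 bp, at 1 kb and at the 5′ end of the body alone. These alternatives were also added after seeing the data, and the wider windows could not lower the counts. The shares of all genes were 1.57% and 0.991% at 250 bp, 4.57% and 2.81% at 1 kb, and 0.491% and 0.378% within 100 bp of the 5′ end. Of the summary values recomputed, 31 stayed within 1.5 times or the interval of the value reported and 17 did not, and the cause was not tested.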
